A study of Mus musculus with 2 samples.

Results

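The genes described here are 42 DNA replication and G1-S genes, listed by symbol. Each was read from the probe set that GEO's platform annotation gives to that 1 gene, taking the brightest by the mean of the 2 arrays where several exist. Of the 42 genes, 41 had such a probe set, out of 18193 genes measured in this way. Chaf1a, a subunit of the chromatin assembly factor CAF-1, had none and has no value here. The 41 genes were represented by 91 probe sets in all. All 41 lay above the filter level, a log2 value of 3.97, on both arrays.

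The samples were primary endothelial cells, which line blood vessels, cultured from C57/BL6 mouse embryos at E10.5, in mid-gestation. Both groups carried the floxed Snail1 allele, Snail1f/f, and both were infected with an adenovirus and left for several days. The WT cells received adeno-βGal and the Snail1 KO cells received adeno-Cre, which deletes the floxed part of Snail1, the gene of a transcriptional repressor. Each group holds 1 array, so every value below is a single measurement, and differences are given by size with no test. No array holds cells given Cre without the floxed allele, so loss of Snail1 and an effect of Cre or its virus cannot be told apart for any gene named below. The labels do not say how many embryos or cultures gave each RNA.

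Snai1, the symbol of Snail1, was at a log2 value of 5.33 on the WT array and 3.59 on the Snail1 KO array, which is 3.35-fold lower. The labels do not give the floxed exons, so whether its probe set lies in the deleted part is not known. All 10 endothelial markers were above the filter level on both arrays, among them Cdh5, VE-cadherin, at 11.34 and 11.46. Of the 10, 7 were higher and 3 lower on the Snail1 KO array. They ranged from Cldn5, the most raised (11.36 and 12.44), to Emcn, the most lowered (13.36 and 12.96). Their summed level was a log2 value of 14.75 (WT) against 14.88 (Snail1 KO). Of 11 mural and fibroblast markers, 6 were lower on the Snail1 KO array. The summed level of all 11 was a log2 value of 12.07 (WT) against 10.80 (Snail1 KO). The brightest on the WT array, Acta2 (10.94 and 9.09) and Tagln (10.35 and 7.80), made up most of that drop. Of the 8 that passed the filter, 5 were lower and 3 higher, with Dcn highest, at 9.45 and 9.62. Of the 10 leukocyte markers found, 8 were lower, or 5 of the 6 that passed the filter. Their summed level was at log2 9.64 and 9.53 over all 10. Coro1a, an actin regulator of blood cells, was at 6.80 and 4.84, with the pan-leukocyte gene Ptprc below the filter level on both arrays. The 5 erythroid and 5 epithelial markers found were each lower, but only 2 of the erythroid and 4 of the epithelial ones passed the filter. Summed levels over all found were log2 6.70 and 6.44 for the erythroid and 7.79 and 6.90 for the epithelial list. Whether these other cell types play a part in the differences below was not tested.

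DNA is copied once per cell cycle. In G1 the origin recognition complex, Cdc6 and Cdt1 load the MCM helicase onto origins, and at the start of S phase Cdc45 and the GINS complex switch the helicase on, after which polymerases, the sliding clamp and ligase copy both strands. Many of these genes are transcribed together by E2F factors, which retinoblastoma proteins hold in check until cyclin-dependent kinases release them. In growing embryonic vessels this programme accompanies the multiplication of endothelial cells. The transcripts of such genes are most abundant around the G1-S transition, and in RNA from a whole culture fewer cells in that phase and less RNA per cell cannot be told apart.

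A sequence feature that the choice of genes did not use is the E2F element at the promoter. RefSeq promoters of build GRCm38.p6, from 250 bases before the transcription start to 50 bases after it, were found for 36 of the 42 genes. The letters TTTGGCGC or TTTCGCGC, on either strand, were present in 12 of the 36, or 33.3%. The share was 0.929% over 27025 genes of the promoter table and 1.79% over the 10371 of them that passed the filter on these arrays. Promoters of the replication and G1-S genes had a median GC content of 62.2%, against 60.7% for those 10371 genes. With the search kept to the 250 bases before the start, 7 of 36 promoters held the element, or 19.4%, against 1.48%. Many of these genes are textbook E2F targets, so the count describes the list and is not a separate discovery, and a match of letters is not a shown binding site.

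The promoters of 5 genes with matches are printed because they show the same letters beside genes that were lower, level and higher in their brightest probe sets. For the lower ones, Mcm5 and Orc1, another probe set of each had the opposite sign. All are from GRCm38.p6 and read 5′ to 3′ on the strand of the gene. Mcm5 (chr8:75109259-75109508, plus strand), Mcm6 (chr1:128359706-128359955, minus strand), Orc1 (chr4:108579204-108579453, plus strand) and Rbl1 (chr2:157204535-157204784, minus strand) are shown for the 250 bases before the start. For these 4 genes the capitals mark TTTGGCGC, TTTCGCGC or their complements GCGCCAAA and GCGCGAAA.
Mcm5: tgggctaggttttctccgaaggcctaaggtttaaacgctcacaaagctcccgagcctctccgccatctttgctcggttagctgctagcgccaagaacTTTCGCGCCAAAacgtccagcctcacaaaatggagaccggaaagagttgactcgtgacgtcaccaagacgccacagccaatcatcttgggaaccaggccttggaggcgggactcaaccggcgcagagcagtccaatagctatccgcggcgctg
Mcm6: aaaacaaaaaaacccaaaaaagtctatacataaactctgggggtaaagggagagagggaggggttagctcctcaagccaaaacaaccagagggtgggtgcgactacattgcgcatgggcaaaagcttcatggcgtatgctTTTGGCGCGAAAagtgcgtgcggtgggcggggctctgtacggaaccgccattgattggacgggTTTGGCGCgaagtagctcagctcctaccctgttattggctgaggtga
Orc1: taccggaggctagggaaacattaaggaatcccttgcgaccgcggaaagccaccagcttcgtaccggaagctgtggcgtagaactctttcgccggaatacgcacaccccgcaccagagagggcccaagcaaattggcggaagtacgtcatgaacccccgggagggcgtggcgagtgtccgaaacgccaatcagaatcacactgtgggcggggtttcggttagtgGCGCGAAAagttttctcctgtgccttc
Rbl1: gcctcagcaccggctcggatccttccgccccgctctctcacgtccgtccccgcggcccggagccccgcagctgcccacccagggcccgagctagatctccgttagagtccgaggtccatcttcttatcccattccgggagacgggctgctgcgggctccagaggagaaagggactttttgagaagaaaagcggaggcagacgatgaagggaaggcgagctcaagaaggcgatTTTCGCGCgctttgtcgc
The matches in Mcm5 begin at -153 and -149 and overlap on opposite strands, as do those of Mcm6 at -110 and -106, and Mcm6 has a further match at -47. Those of Orc1 and Rbl1 begin at -27 and -18, close to the start. E2f2, the gene with the largest difference of the list, has its match after the start, at position 40, inside the 30 bases at chr4:136172294-136172323, plus strand.
E2f2 element: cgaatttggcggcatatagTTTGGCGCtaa
The promoter table also lists a further E2f2 start along the gene, and whether it is used in these cells was not tested. The 250 bases before it (chr4:136180532-136180781, plus strand) hold CAGGTG, the E-box that Snail factors are known to bind, at -15, in capitals here.
E2f2 second start: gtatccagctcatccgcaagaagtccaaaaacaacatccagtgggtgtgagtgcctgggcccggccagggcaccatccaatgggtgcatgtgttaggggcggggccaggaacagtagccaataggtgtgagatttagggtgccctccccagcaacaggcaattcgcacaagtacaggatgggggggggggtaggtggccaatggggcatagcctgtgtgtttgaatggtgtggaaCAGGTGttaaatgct
CAGGTG or its complement CACCTG was found in 3 of the 36 genes, E2f2, Prim1 and Tyms, or 8.33%, against 22.6% of all genes in the table and 21.7% of those that passed the filter. Their differences were 0.89, -0.26 and 0.25 in that order, the last from dim probe sets. Whether Snail1 binds any of them was not tested. The 12 genes with an E2F element had a median log2 difference of 0.01, with 6 lower and 6 higher, from -0.49 for Mcm5 to 0.89 for E2f2. The 23 measured genes with a promoter but no such element had a median of -0.04, with 12 lower. Over this window carriers of the element lay in both directions alike. With the search kept to the 250 bases before the start, 6 of 7 carriers were lower, with a median of -0.21, against 12 of 28 genes without it, with a median of 0.07, so the split depends on the window. Other promoter letters were CCAAT, bound by the factor NF-Y, in 22 of 36 promoters (61.1%, against 42.6% of genes that passed the filter), and TTTGAA, the CHR element of cell cycle genes, in 6 of 36 (16.7%, against 14.1%), counted on both strands. GGCGGGAA, another variant of the E2F consensus and so not an independent feature, was in 8 of 36 (22.2%, against 4.48%). Of the 7 measured carriers 6 were lower, against 12 of 28 genes without it and 50.9% of all genes. Among the lower carriers E2f3, Rrm1 and Uhrf1 had probe sets of mixed sign, and a link of the letters to direction was not tested.

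As a group the replication and G1-S genes lay close to the level of the WT array. None of the 41 was at least 2-fold lower or higher on the Snail1 KO array, where 1.84% of 12874 genes that passed the filter were 2-fold lower and 0.971% 2-fold higher. Over the 41 genes the median log2 difference, Snail1 KO minus WT, was -0.05, against -0.01 for all 12874. Of the 41, 22 were lower and 19 higher, a share of 53.7% lower against 50.9% of all genes. The 50.9% is also the background for the counts of lower genes by role, list and complex below. At the smaller size of 1.2-fold, 12 of 41 (29.3%) were lower, against 21.9% of all genes, and 5 of 41 (12.2%) higher, against 19.9%. Differences within 0.32, the robust SD over all genes, were found for 28 of the 41 (68.3%), a share near the 66.6% of all genes. A second yardstick is the disagreement between probe sets of 1 gene, whose differences from the brightest had an SD of 0.40 over all genes. Neither yardstick replaces replicate cultures.

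**Figure D1:**
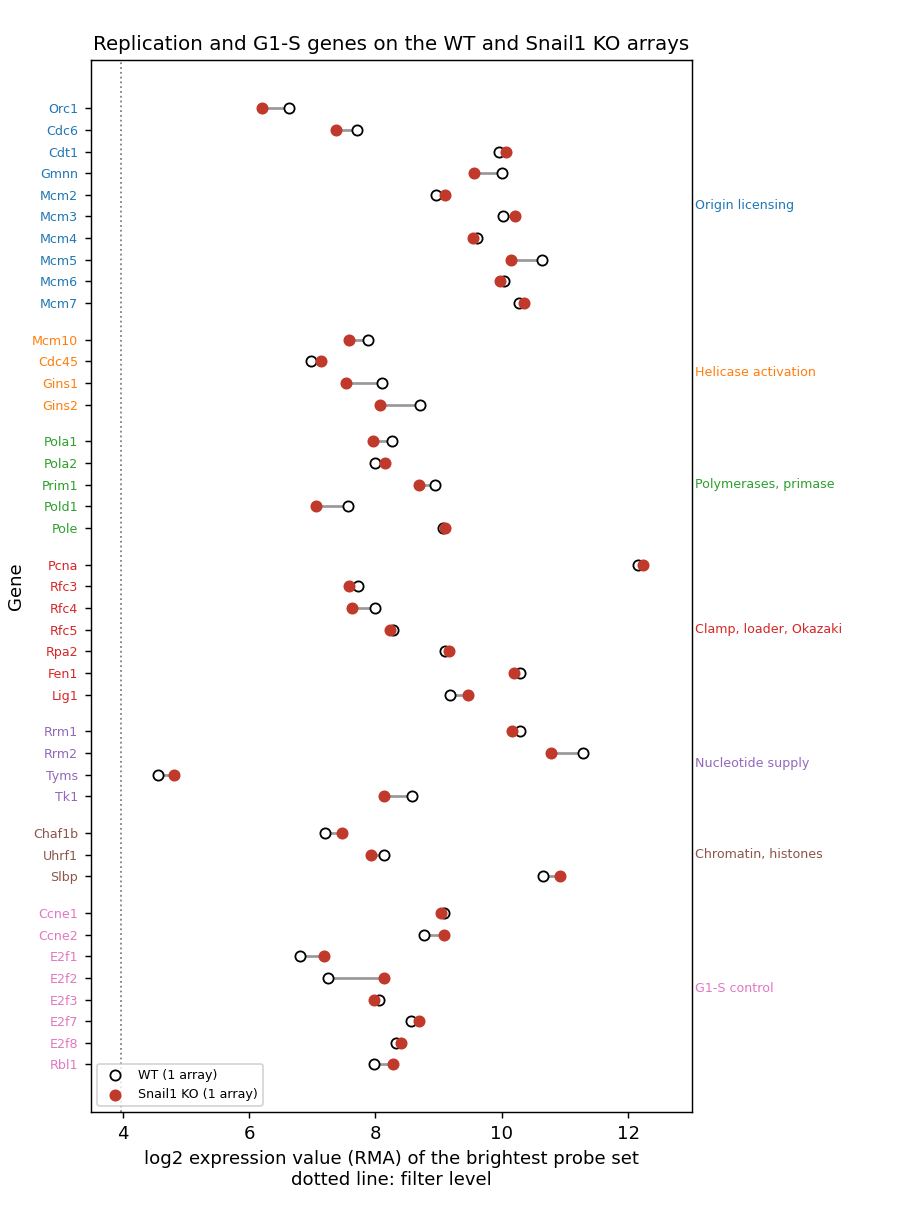
Log2 expression (x axis) of 41 replication and G1-S genes (y axis, grouped and coloured by role) on the WT array (open circles) and the Snail1 KO array (red circles), 1 array each, with a grey bar joining them. The longest bar is that of E2f2, from 7.25 to 8.14, and levels of different genes come from different probes and are not comparable.

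The origin licensing genes had a median difference of -0.06 over 10 genes, 6 lower and 4 higher. Orc1, the largest subunit of the origin recognition complex, was at 6.63 on the WT array and 6.21 on the Snail1 KO array, a difference of -0.42, although its other probe set gave 0.16. Cdc6, an ATPase that helps load the helicase, was at 7.71 and 7.37, a difference of -0.34. Cdt1, its partner in loading, was level by comparison, at 9.96 and 10.07, and another probe set gave -0.15. Gmnn encodes geminin, the inhibitor of Cdt1. Its values were 10.00 (WT) and 9.56 (Snail1 KO), or 1.35-fold lower. Cdc6 and Gmnn were thus lower in the 1 probe set of each, and the direction of Cdt1 cannot be read from its probe sets.

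The 6 subunits of the MCM2-7 helicase ring split evenly in their brightest probe sets, 3 lower and 3 higher. Without probe sets that can bind several transcripts, 4 of the 5 that remained were lower. Mcm5 stood lowest, at 10.64 (WT) and 10.15 (Snail1 KO), or 1.40-fold lower, and its other analysed probe sets gave -0.29 and 0.17. Mcm4 (9.60 and 9.54) and Mcm6 (10.03 and 9.96) were nearly equal in their brightest probe sets, but a further probe set of each gave -0.47 and -0.42. Mcm2 (8.95 and 9.09), Mcm3 (10.02 and 10.21) and Mcm7 (10.26 and 10.35) were slightly higher. For Mcm3 the other 4 probe sets ranged from -0.36 to 0.40, and for Mcm2 the other gave -0.04. The direction of a single MCM gene thus depended on the probe set for Mcm2, Mcm3, Mcm5 and Mcm7, the last with probe sets from -0.002 to 0.08.

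The factors that switch the helicase on had the lowest median of the role groups, -0.43 over 4 genes, with 3 lower and 1 higher. Gins2, a subunit of GINS, was at 8.70 on the WT array and 8.08 on the Snail1 KO array, 1.54-fold lower, and its other analysed probe set gave -0.75. This was the largest negative difference among the 41 genes, and the 1 gene lower by at least 1.5-fold, a size that 6.08% of all genes passed. Gins1, of the same complex, was at 8.11 and 7.54, 1.48-fold lower in its only analysed probe set. Mcm10, which helps the helicase to leave the origin, was at 7.88 and 7.59. Cdc45, which completes the active helicase with GINS and MCM, went the other way at 6.97 and 7.13, with another probe set at -0.03.

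Among the polymerase genes the difference was largest for Pold1, the catalytic subunit of DNA polymerase delta, which copies the lagging strand. Its values were 7.56 (WT) and 7.07 (Snail1 KO), or 1.41-fold lower, and the other probe set gave -0.51. Pole, the catalytic subunit of the leading-strand polymerase epsilon, was at 9.06 and 9.10, a difference of 0.03. The primase Prim1 was at 8.95 and 8.69, with its other probe set at -0.36, and Pola1, the catalytic subunit of polymerase alpha, at 8.27 and 7.97. Pola2, the accessory subunit of that enzyme, was at 7.996 and 8.149, but a dimmer probe set gave -0.53. The group median was -0.26 over 5 genes, 3 of them lower.

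Clamp, clamp loader and Okazaki fragment genes lay around 0, with a median of -0.05 over 7 genes. Pcna, the sliding clamp and a common marker of proliferating cells, was at 12.16 (WT) and 12.23 (Snail1 KO), a difference of 0.07. Of the loader subunits, Rfc4 was lower at 8.0 and 7.64 (another probe set at -0.47), while Rfc3 (7.72 and 7.58) and Rfc5 (8.28 and 8.22) differed by -0.14 and -0.05. Rpa2, of the single-strand binding protein, was at 9.09 and 9.16. The flap nuclease Fen1 was at 10.29 and 10.19 with its other probe set at 0.04, and the ligase Lig1, which seals the fragments, was highest of the group at 9.18 and 9.46, 1.21-fold higher.

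Genes for the supply of DNA precursors were lower in 3 of 4 cases, with a median of -0.29. Rrm2, the regulated small subunit of ribonucleotide reductase, had values of 11.29 (WT) and 10.77 (Snail1 KO), or 1.43-fold lower, and its other probe sets gave -0.49 and -0.09. Rrm1, the large subunit, was at 10.29 and 10.16, while another probe set gave 0.30. The salvage enzyme Tk1, thymidine kinase, was at 8.58 and 8.13, 1.36-fold lower in its only probe set. Thymidylate synthase, Tyms, was dim at 4.56 and 4.81, and 2 of its 4 probe sets passed the filter, both at 0.25. A further probe set that the annotation shares between Tyms and its pseudogene was left out, so the Tyms value rests on dim probe sets.

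Of the chromatin and histone genes, Chaf1b, a subunit of CAF-1, was at 7.20 and 7.46. Uhrf1, which brings the maintenance DNA methyltransferase to new DNA, was at 8.14 and 7.93, with another probe set at 0.06. Slbp, which binds the stem-loop of histone mRNAs, was at 10.66 and 10.91 in its brightest probe set. A much dimmer Slbp probe set went from 4.63 to 5.76, a difference of 1.13, and was 1 of the 2 probe sets of these genes past 2-fold.

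The G1-S control genes were the group most often higher, in 6 of 8 cases, with a median of 0.21. E2f2, an activating E2F factor, was at 7.25 on the WT array and 8.14 on the Snail1 KO array, 1.86-fold higher. Its other probe set was at 5.76 and 7.14, a difference of 1.38 and the other of the 2 past 2-fold. At 1.5-fold, E2f2 was the 1 higher gene among the 41, where 5.06% of all genes were higher by that size. The other activators were closer to WT, E2f1 at 6.81 and 7.18, with further probe sets at -0.09 and 0.08, and E2f3 at 8.05 and 7.97, with another at 0.04. The atypical repressors E2f7 (8.56 and 8.69) and E2f8 (8.33 and 8.40) were nearly level. Among the cyclins that drive entry into S phase, Ccne2 was at 8.76 and 9.08, 1.25-fold higher, and Ccne1 at 9.09 and 9.04. Rbl1, the retinoblastoma relative p107, was at 7.98 and 8.28, 1.23-fold higher, and its other analysed probe set gave 0.39.

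**Figure D2:**
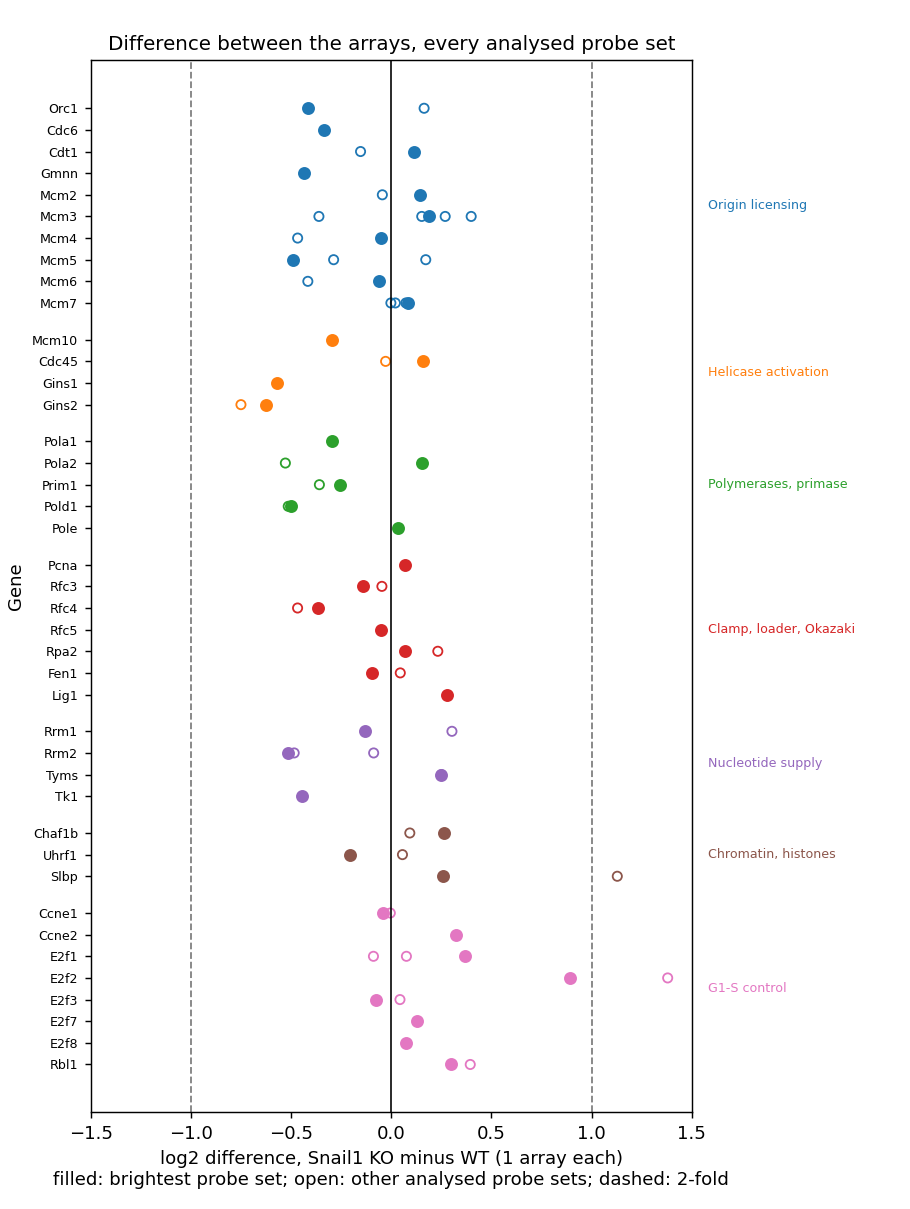
Log2 difference, Snail1 KO minus WT (x axis), for every analysed probe set of the 41 genes (y axis, coloured by role), with filled points for the brightest probe set, open points for the others and dashed lines at 2-fold. The 77 points are 1 value each without error bars, and 2 of them, for E2f2 and Slbp, lie past a dashed line.

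Of the 41 genes, 13 had 1 analysed probe set and 28 had several. In 15 of those 28 all probe sets had the same sign, among them E2f2, Gins2, Pold1, Rrm2, Rfc4, Prim1 and Rbl1. In the other 13 the sign was mixed, and there the direction of the gene cannot be read from these arrays.

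The wider process was described with 98 further replication and G1-S genes, of which 96 had a probe set of their own and all 96 passed the filter. Their median difference was -0.07, with 57 lower (59.4%, against 50.9% of all genes) and 39 higher. At least 2-fold lower in its brightest probe set was 1 of the 96, Samhd1, which breaks down DNA precursors, and none was 2-fold higher. Dimmer probe sets past 2-fold were found for Ccng2 (1.41) and Rbbp4 (1.04), and in the lower direction for Ccnd2 (-1.14) and Mthfd1 (-1.02). Samhd1 had values of 8.64 (WT) and 7.63 (Snail1 KO), or 2.02-fold lower, with its other probe sets between -0.55 and -0.12. At 1.2-fold, 28.1% were lower and 14.6% higher, against 21.9% and 19.9% of all genes.

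Among further licensing and origin genes, with a median of -0.07 over 16, Orc6 was lowest at -0.51 and Mcm9, a helicase relative with a role in repair, highest at 0.79, with another Mcm9 probe set at -0.29. The further fork and polymerase genes were lower in 16 of 23 cases, with a median of -0.09. Pole4, a histone-fold subunit of polymerase epsilon, was at 7.94 and 7.07, 1.83-fold lower, with its other probe set at -0.56, and the nuclease Dna2 was highest at 0.56. Nucleotide metabolism genes, Samhd1 included, were lower in 8 of 10 cases, with a median of -0.38. Rrm2b, the p53-induced subunit of ribonucleotide reductase, was the highest of them at 0.10, with another probe set at 0.78. In the chromatin replication list, with a median of -0.07 over 10, the histone chaperone Nasp was lowest at -0.28, with other probe sets from -0.09 to 0.34. Rbbp4 was highest at 0.25, with other probe sets from 0.24 to 1.04.

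G1 cyclins and kinases had a median of -0.20 over 14 genes, 10 of them lower. Ccnd2, cyclin D2, was at 10.88 and 10.27, with other probe sets from -1.14 to -0.32. Cdk2, the kinase partner of cyclin E, was at 8.16 and 8.92, 1.69-fold higher in its only analysed probe set, which can bind several transcripts. The difference was 0.33 with the mean of all its probe sets, which takes in a probe set below the filter level. The G1-S brakes, such as kinase inhibitors and retinoblastoma proteins, were higher in 12 of 17 cases, with a median of 0.12. A share of 29.4% was lower, against 50.9% of all genes. The kinase inhibitors among them lay in both directions, from -0.21 for Cdkn2b to 0.35 for Cdkn2a. Btg1, an antiproliferative gene, was the highest of the brakes at 10.41 and 11.10, with other probe sets at 0.23 to 0.29. E2f5 was lowest at -0.51, with other probe sets from -0.15 to 0.07. Of the E2F partners, Tfdp2, a dimerisation partner of E2F, was at 6.84 and 7.84, a difference just under 2-fold, while its other probe sets gave 0.12 to 0.15, and Lin9 was lowest at -0.08.

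Grouped by complex, an arrangement chosen after the values had been seen, GINS and DNA polymerase delta were the 2 complexes of 9 with every subunit lower. The 4 GINS genes differed by -0.62 for Gins2, -0.57 for Gins1, -0.41 for Gins3 and -0.23 for Gins4, and another Gins3 probe set gave 0.04. The 4 polymerase delta genes differed by -0.54 for Pold4, -0.50 for Pold1, -0.47 for Pold2 and -0.17 for Pold3, with other Pold3 probe sets from -0.32 to 0.43. Both complexes kept all 4 subunits lower under the 6 other ways of processing that were tried, though most of this was fixed in advance. A change of filter cannot alter a sign, and centring only subtracted the median of all genes, -0.01. Gins4, Pold2 and Pold4 have 1 probe set each, so the choice between probe sets could not change them. In the origin recognition complex 5 of 6 subunits were lower in their brightest probe sets and Orc5 was at 0.32. Other probe sets of Orc1, Orc2, Orc3 and Orc4 reached 0.16, 0.11, 0.22 and 0.06, so their direction cannot be read. The count was 4 of 6 with the mean of all probe sets, and also without probe sets that can bind several transcripts. In polymerase epsilon Pole and Pole2 both differed by 0.03 while Pole3 and Pole4 were at -0.44 and -0.88.

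The retinoblastoma family ran the other way, with Rb1 at 0.39, Rbl2 at 0.33 and Rbl1 at 0.30, although another Rb1 probe set gave -0.26. In the E2F family 6 of 8 genes were higher in their brightest probe sets, with E2f3 and E2f5 as the exceptions. The probe sets of E2f1, E2f3 and E2f5 were each of mixed sign. Subunits of 1 complex are not replicates of a condition, and the differences of GINS and polymerase delta are each below 2-fold.

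**Figure D3:**
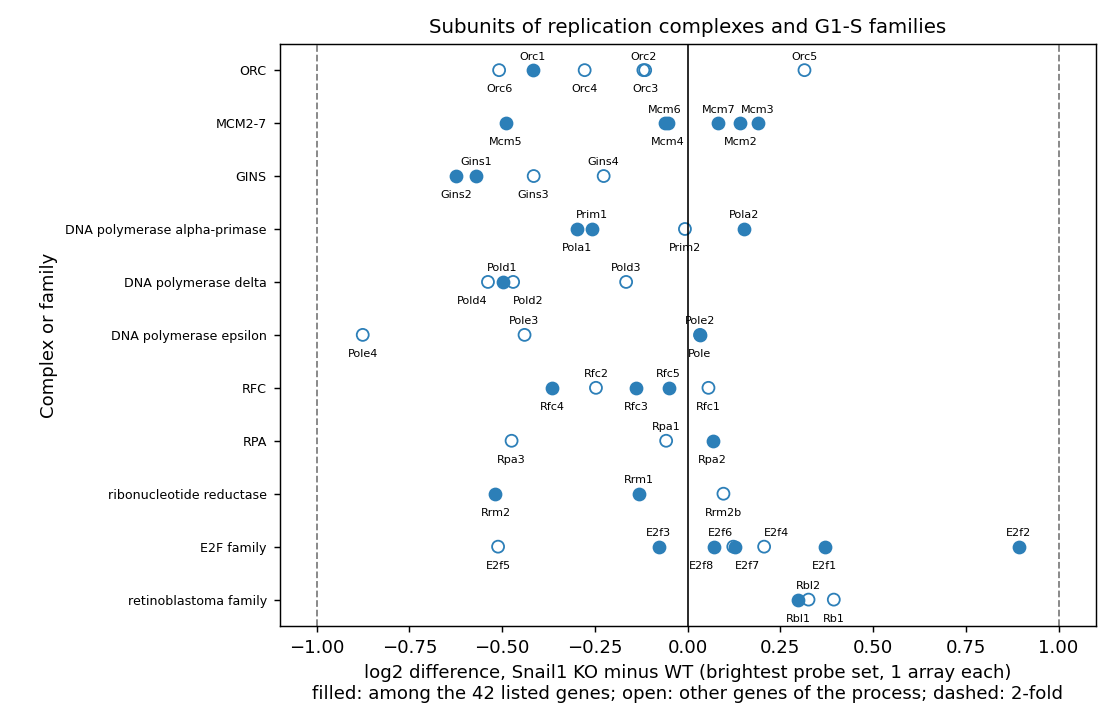
Log2 difference, Snail1 KO minus WT (x axis), of the subunits of 9 replication complexes and the members of 2 G1-S families (y axis), 1 point per gene from its brightest probe set, filled for the 42 listed genes and open for other genes of the process. All GINS and polymerase delta points lie left of 0 and all retinoblastoma family points right of it.

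Mitosis genes, which act later in the same cycle, differed more than the replication genes. Of 29 that passed the filter, 26 (89.7%) were lower on the Snail1 KO array, against 50.9% of all genes. The median difference of the 29 was -0.35, which is 0.30 below the median of the replication and G1-S genes. The mitotic kinase Plk1 was lowest, at 9.39 and 8.64, and Cenpf, of the kinetochore, highest at 0.09. The proliferation marker Mki67 was at 10.19 and 10.22. This difference between the lists was not tested, since each array is 1 sample.

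**Figure D4:**
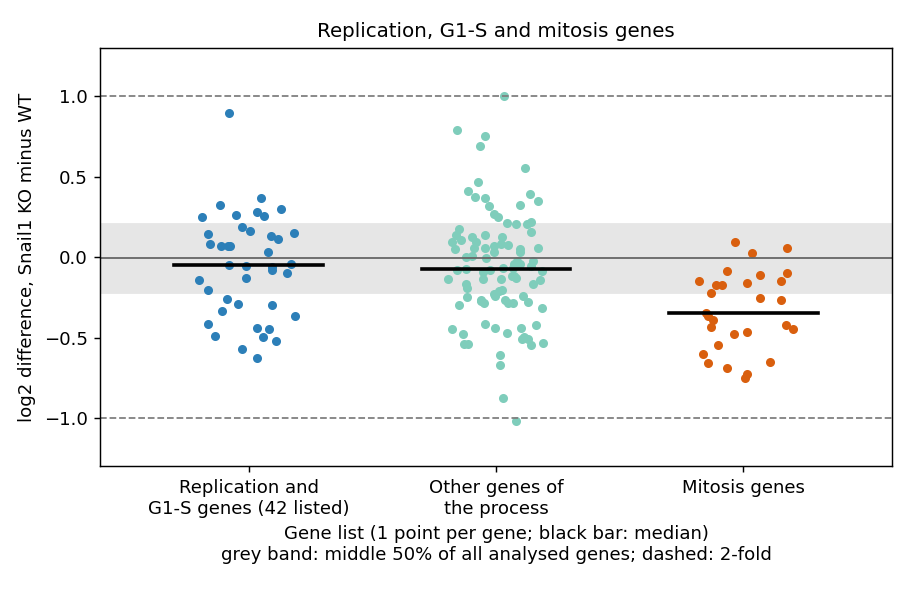
Log2 difference, Snail1 KO minus WT (y axis), with 1 point per gene that passed the filter for 41 replication and G1-S genes, 96 other genes of the process and 29 mitosis genes (x axis), black bars at the medians and a grey band for the middle 50% of all genes. The medians are -0.05, -0.07 and -0.35.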

How the data were processed

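The authors deposited log2 expression values, 1 per probe set for each array. Per the submitters' processing notes they come from RMA (R package affy), with no version given in the sources used here. RMA includes quantile normalization between arrays, so a change in total mRNA cannot be seen, and it compresses differences of dim probe sets. The values were used as deposited, for 45101 probe sets on 2 arrays. Platform annotation gave 1 gene to 34945 probe sets, several to 932 and none here to 9160, and 64 are controls.

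The brightest single-gene probe set stood for a gene. A gene was analysed if its mean was above the 40th percentile of probe sets other than controls (12874 genes). Differences were counted at 2-fold and 1.2-fold with Python 3.11.15 and pandas 2.3.3. The code that counts by size was checked on simulated differences. With 1 array per group no test, error or p-value was possible, and the number of arrays limits the precision. Named genes are all 42 listed ones, the highest and lowest of each further list and any past 2-fold; Mki67, the subunits of complexes and the promoters printed were picked with the values in view. The genes and lists were chosen with earlier results of these data known. Promoters are from RefSeq, GRCm38.p6. Alternatives changed the filter, the probe set choice, the centring and the size.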

Additional observations from a re-analysis of the deposited data

Results flagged for a closer look

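The 4 control probe sets for phage P1 Cre, which enter no comparison above, had log2 values from 2.69 to 3.83 (WT) and from 11.87 to 12.86 (Snail1 KO). They are listed because a signal appeared outside the gene measurements, and the smallest of the 4 log2 differences was 8.04. The WT values lie below the filter level, so these sizes are not exact.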

How the results depend on the processing

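The alternatives were no filter, a filter at the 60th percentile, averaging the probe sets of each gene, leaving out probe sets that can bind several transcripts, and centring the differences on their median or on a loess curve over level. The number of lower genes was 22 in all 6, out of 36 to 41, and the median of the replication and G1-S genes stayed between -0.05 and -0.02. A change of filter cannot alter a sign, so the equal count was partly fixed in advance. Without probe sets that can bind several transcripts, the 22 were of 36 and not the same genes. Cdt1, Mcm2 and E2f1 became lower there, while Cdc6, Mcm10 and Fen1, lower in the main values, had no value. With the mean of all probe sets, 1 gene, E2f2 at 1.14, was 2-fold higher, and the median of the mitosis list was -0.23. Without probe sets that can bind several transcripts, the median of the further replication and G1-S genes was -0.024, over 85 of them. By construction the counts grew with a smaller size, to 1 lower and 1 higher gene at 1.5-fold. Of 239 alternative values of single genes, 238 stayed within the probe set SD of 0.40 of the value given, and 5 had the other sign, 1 each for Cdt1, Mcm2, Pola2, Rrm1 and E2f1, the last at -0.09. Much of this was fixed in advance. A filter cannot alter the value of a gene that passes it, and centring only subtracts the median of all genes, -0.01. The SD of 0.40 also exceeds the median size of the differences, 0.25, so a change of sign can lie within it. The MCM2-7 median, 0.01, changed sign with the mean of all probe sets, to -0.07, and without probe sets that can bind several transcripts, to -0.05, where the clamp and Okazaki median also changed sign, to 0.01. Among the other complexes the medians of RPA (to 0.15 and 0.07 under the same alternatives) and ribonucleotide reductase (to 0.04 with the mean of all probe sets) changed sign. With 1 array a group, none could be left out. No paired analysis was possible because the labels give no replicate numbers. Signal over background is unknown, as no detection calls were used.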
